A study of Mus musculus with 6 samples.

Results

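The matrix metalloproteinases (MMPs), the ADAMTS proteases with their ADAMTS-like (ADAMTSL) relatives, and the tissue inhibitors of metalloproteinases (TIMPs) were examined in left ventricles. The genes were taken by symbol, as Mmp, Timp, Adamts or Adamtsl followed by a number. The rule found 51 of the 52550 genes in the table: 23 MMP, 4 TIMP, 19 ADAMTS and 5 ADAMTSL genes. RNA came from C57BL/6J mice aged 12 months, and there were 3 wild-type (WT) libraries beside 3 whose label, PKI, stands for overexpression of PGC-1α, a coactivator of mitochondrial and oxidative metabolism genes. The labels give no promoter, cell type or construct for the overexpression, and do not say whether each library is a separate animal. The p-values therefore measure the spread between these libraries, which may be technical.

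MMPs are zinc-dependent endopeptidases, secreted or anchored in the plasma membrane, that cut collagens and other proteins of the extracellular matrix. They are made as inactive precursors and are opened by other proteases. ADAMTS enzymes are secreted relatives with thrombospondin repeats that process procollagens, cleave proteoglycans such as versican, or act on single substrates, whereas ADAMTSL proteins have the repeats but no protease domain. TIMPs block the active site of these enzymes. In the heart the families are known for their part in matrix turnover after injury and under load, with fibroblasts, endothelial cells, leukocytes and cardiomyocytes all contributing transcripts.

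Values are FPKM, fragments scaled by transcript length and library total, so levels of different genes can be set side by side. The columns summed to between 708058 and 767757 FPKM. The absolute depth of the libraries is unknown. Ppargc1a, the gene named in the label, stood at 14.2, 12.8 and 12.4 FPKM in the WT libraries and at 11.6, 11.8 and 11.4 in the libraries labelled PKI, so it was not higher there (log2 change −0.16, adjusted p = 0.0967 in limma; exact two-sided permutation p = 0.1, the smallest that 3 against 3 allows). After the scaling described below it was called lower (log2 −0.44, limma adjusted p = 0.00521). Directions below are those of the libraries labelled PKI. Each fold is the mean FPKM of one group over that of the other, and each log2 change is a difference of log2(FPKM + 1), a scale on which low genes appear to change less than they do. A gene was called at an adjusted p under 0.05 over all 9907 genes whose mean reached 1 FPKM. The median log2 change of all those genes was 0.21, and it was −0.02 once each library had been divided by its median-of-ratios size factor, referred to as scaling.

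Of the 51 genes, 18 reached a mean of 1 FPKM and were tested. In libraries labelled PKI 13 of them rose and 2 fell, and 3 did not pass (Mmp15, Mmp3 and Mmp11). Over all tested genes 39.4% were called, 36.4% higher and 2.96% lower. After scaling 9 of the 18 were higher and 3 lower, against 7.82% and 9.18% of all tested genes, and no tested member changed its sign. The median log2 change of the 18 was 0.62, and 0.42 after scaling. By at least 1 on the log2 scale, 6 of the 18 rose (2.26% of all tested genes) and 0 fell (0.101%). Of the 18, Timp1, Adamtsl2, Adamts2 and Mmp11 reached the minimum through the libraries labelled PKI alone, and Adamts7 through the WT libraries alone, so the count and the median describe these genes and support nothing further. Every value labelled PKI lay above every WT value for 13 of the 18 (51.3% of all tested genes) and below for 2 (4.53%). Within the groups, PKI replicate 2 had the highest value of its group for 12 of the 18 genes (42.5% of all tested genes) and PKI replicate 3 the lowest for 9 (34.5%). WT replicate 1 was the highest of its group for 9 (41.3%) and WT replicate 2 the lowest for 10 (36.0%).

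**Figure D1:**
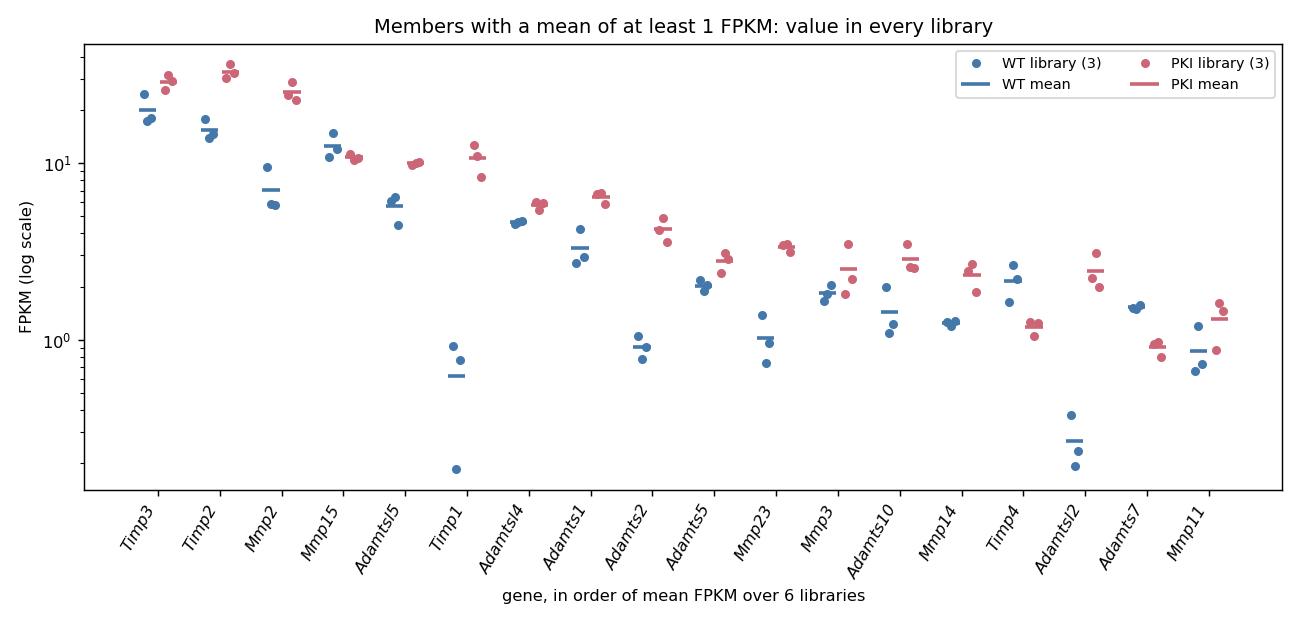
FPKM on a log axis of the 18 tested genes, in order of that mean, with 1 point for each of the 3 WT and 3 PKI libraries and a bar at each group mean. Points of the groups lie apart for all genes but Mmp15, Mmp3 and Mmp11, with Timp1 furthest apart (0.624 and 10.6 FPKM).

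The inhibitors changed in both directions. Timp1, which inhibits most secreted MMPs and is induced by cytokines in many cells, was the most changed of all 18 genes. Timp1 (ENSMUSG00000001131, chromosome X: 20870166 to 20874735, plus strand, GRCm38) stood at 0.919, 0.184 and 0.769 FPKM in the WT libraries and at 12.6, 11 and 8.34 in those labelled PKI. The lowest of the libraries labelled PKI was thus far above the highest WT library. Mean Timp1 rose 17-fold, from 0.624 ± 0.389 to 10.6 ± 2.15 FPKM (SD, n = 3 each; log2 2.85, SE 0.21, limma adjusted p = 0.000502), and the log2 change was 2.66 after scaling. Timp1 lies within an intron of Syn1 on the opposite strand, and the libraries do not mark strand, but Syn1 itself was at 0.0505 FPKM or less in every library.

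Timp2, which inhibits MMPs and also takes part in the activation of MMP2 at the cell surface, was the next inhibitor to rise. Timp2 (ENSMUSG00000017466, chromosome 11: 118301069 to 118355740, minus strand) stood at 17.8, 13.9 and 14.7 FPKM in WT against 30.3, 36.4 and 32.6 in those labelled PKI. The groups were well separated, with a 2.14-fold rise (log2 1.05, SE 0.11, adjusted p = 0.00108, and 0.77 after scaling). Timp3, the inhibitor that binds to the matrix and also blocks several ADAMTS and ADAM proteases, was at 24.7, 17.3 and 18.1 FPKM in WT against 25.9, 31.4 and 29.3 in those labelled PKI. WT replicate 1 stood above the other two WT libraries and just below the lowest library labelled PKI. The 1.44-fold rise of Timp3 passed (log2 0.52, SE 0.14, adjusted p = 0.0252) but not after scaling (log2 0.23, adjusted p = 0.285), nor without a filter on low values (0.0741), WT replicate 2 (adjusted p = 0.0705), WT replicate 3 (0.0798), PKI replicate 2 (0.0711) or PKI replicate 3 (0.0689).

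Timp4, the member of the family best known for its expression in the heart, moved the other way. Timp4 (ENSMUSG00000030317, chromosome 6: 115241892 to 115252205, minus strand) stood at 1.63, 2.65 and 2.20 FPKM in WT against 1.25, 1.05 and 1.25 in those labelled PKI. All 3 libraries labelled PKI lay below the lowest WT library. The mean was 1.82-fold lower (log2 −0.52, SE 0.12, adjusted p = 0.0180, and −0.70 after scaling). Timp4 no longer passed without WT replicate 3 (adjusted p = 0.0570) or PKI replicate 2 (0.0515), and without a filter on low values (0.0579). Timp4 shares 90 exon bases with Syn2 on the opposite strand, whose level was 0.208 ± 0.133 FPKM in WT against 0.278 ± 0.0986 in those labelled PKI (SD, n = 3 each). Timp3 shares 1733 exon bases with Syn3, which was below 0.1 FPKM.

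The 4 inhibitors summed to 45.1, 34.0 and 35.7 FPKM in WT against 70.0, 79.8 and 71.5 in those labelled PKI. Their proportions shifted within that sum. Timp1 made up 0.541% to 2.15% of it in WT against 11.7% to 18% in those labelled PKI. Timp3 went from 50.7% to 54.8% in WT to between 37.0% and 41.0%, and Timp4 from between 3.62% and 7.78% to between 1.32% and 1.79%. The share of Timp2 was 39.6% to 41.0% in WT against 43.2% to 45.6% in those labelled PKI. Timp1 was at 0.0695 to 0.564 times the level of Timp4 in the WT libraries and at 6.67 to 10.4 times that level in those labelled PKI.

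**Figure D2:**
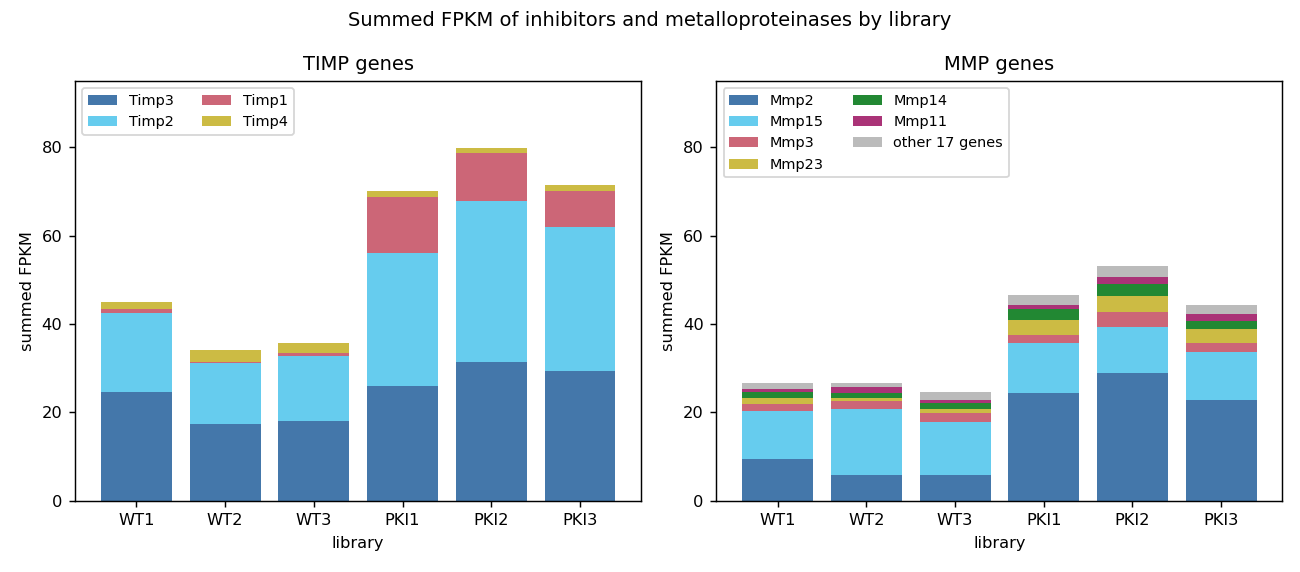
Stacked bars of summed FPKM by library, with the TIMP genes on the left and the MMP genes on the right (6 genes and the sum of the others). The TIMP sums run from 34.0 to 45.1 in WT against 70.0 to 79.8 in those labelled PKI, and the segments of Timp1, Timp2, Timp3 and Mmp2 are larger in each library labelled PKI than in any WT library.

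Among the proteases, the gelatinase Mmp2, which degrades denatured collagen and basement membrane collagen, had the highest level in libraries labelled PKI. Mmp2 (ENSMUSG00000031740, chromosome 8: 92827291 to 92853420, plus strand) stood at 9.47, 5.90 and 5.80 FPKM in WT against 24.4, 28.9 and 22.9 in those labelled PKI. WT replicate 1 was above the other two WT libraries, and all 3 were below those labelled PKI. Mean Mmp2 rose 3.60-fold (log2 1.74, SE 0.18, adjusted p = 0.00106), with a log2 change of 1.46 after scaling. The other gelatinase, Mmp9, known as a product of neutrophils and macrophages, had a mean of 0.278 FPKM over the 6 libraries. It was at 0.291, 0.0565 and 0.648 FPKM in WT against 0.212, 0.249 and 0.209 in those labelled PKI, so the groups overlapped.

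Membrane-type MMPs sit in the plasma membrane, and 2 of the 6, Mmp14 and Mmp15, were tested. Mmp14, the main membrane-bound activator of MMP2 and a collagenase in its own right, was at 1.25, 1.20 and 1.28 FPKM in WT against 2.46, 2.68 and 1.87 in those labelled PKI. It rose 1.88-fold with no overlap (chromosome 14: 54431612 to 54445364; log2 0.57, SE 0.10, adjusted p = 0.00709, and 0.38 after scaling). Mmp15, the closest relative of Mmp14, was the MMP with the highest mean level in WT. Mmp15 stood at 10.8, 14.8 and 12.0 FPKM in WT against 11.3, 10.5 and 10.7 in those labelled PKI (chromosome 8: 95352268 to 95375080). The groups overlapped and the log2 change of −0.18 did not pass (95% interval −0.44 to 0.08, adjusted p = 0.213), whereas after scaling Mmp15 was called lower (log2 −0.46, adjusted p = 0.0359). Mmp16, Mmp17, Mmp24 and Mmp25 were at 0.305 FPKM or less in every library. Mmp16 and Mmp17 lay higher in each library labelled PKI than in any WT library, by small margins at these levels.

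Mmp2 was at 0.398 to 0.876 times the level of Mmp15 in the WT libraries and at 2.14 to 2.75 times it in those labelled PKI. Mmp15 accordingly made up 40.7% to 55.7% of all MMP FPKM in WT against 19.7% to 24.4% in those labelled PKI, and Mmp2 22.2% to 35.6% and 51.7% to 54.3%. All 23 MMP genes together came to 26.6, 26.6 and 24.7 FPKM in WT against 46.5, 53.1 and 44.3 in those labelled PKI. The ratio of the TIMP sum to the MMP sum was 1.70, 1.28 and 1.45 in WT against 1.51, 1.5 and 1.61 in those labelled PKI. These ratios overlapped, while Timp2 over Mmp2 was 1.88 to 2.53 in WT against 1.24 to 1.42 in those labelled PKI. The sums and ratios are descriptions and were given no test.

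Mmp23, an unusual member that lacks the haemopexin domain and is held in membranes by its amino end, was at 1.38, 0.743 and 0.955 FPKM in WT against 3.45, 3.48 and 3.12 in those labelled PKI. The rise was 3.27-fold without overlap (chromosome 4: 155650655 to 155653384; log2 1.11, SE 0.12, adjusted p = 0.00123, and 0.92 after scaling). Mmp3, a stromelysin with a broad range of substrates that also activates other MMPs, was at 1.65, 1.82 and 2.04 FPKM in WT against 1.82, 3.49 and 2.20 in those labelled PKI. PKI replicate 2 was high, the other two libraries labelled PKI lay near the WT values, and the log2 change of 0.28 did not pass (95% interval −0.12 to 0.67, adjusted p = 0.214). Mmp11, activated inside the cell by furin, was at 0.661, 1.19 and 0.726 FPKM in WT against 0.876, 1.60 and 1.46 in those labelled PKI, and did not pass either (log2 0.31, adjusted p = 0.150). Mmp11 shares 155 exon bases with Chchd10 on the opposite strand, which was at 130 ± 6.35 FPKM in WT against 135 ± 21.5 in those labelled PKI (SD, n = 3 each), so the low Mmp11 values are uncertain.

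Mmp3 is 1 of 10 MMP genes that lie side by side within 427 kb of chromosome 9 (7272514 to 7699585). They include the collagenases Mmp1a, Mmp1b, Mmp8 and Mmp13, the matrilysin Mmp7 and the macrophage elastase Mmp12. The other 9 were at 0.229 FPKM or less in every library, and 3 of them (Mmp1a, Mmp10 and Mmp20) were listed at 0 in all 6. GENCODE M21 classes Mmp1a as a polymorphic pseudogene. Mmp13, the main interstitial collagenase of rodents, was at 0.111, 0.141 and 0.103 FPKM in WT against 0.0549, 0.0372 and 0.0189 in those labelled PKI. It was among the genes below the minimum mean for the test.

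The cluster also differed from the other members in promoter sequence. RefSeq promoters (GRCm38.p6, 250 bases before to 50 after the start) were at hand for 36 of the 51 genes, 14 of them among the 18 tested, and the motifs were chosen after the sequences had been read. The palindrome TGANTCA, a pattern that takes in the AP-1 binding sequences TGAGTCA and TGACTCA, was found in 8 of the 10 cluster promoters. It was found in 0 of the 26 others and in 8.97% of 27025 genes. The Mmp20 match was TGAATCA, which is neither of these sequences. TATAAA, searched on both strands, was found in 9 of the 10, in 3 of the 26 and in 15.7% of all genes. The GC box GGGCGG, searched on both strands, was found in 0 of the 10, in 22 of the 26 and in 38.2% of all genes. The median number of CG dinucleotides in the window was 1.5 in the cluster, 22 in the other members and 8 over all genes. The cluster genes are paralogs and share sequence by descent.

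The 100 bases before the start are shown for 3 cluster genes, of which Mmp3 alone was above 1 FPKM, for 3 genes that rose, and for Timp4, which fell. Capitals mark the AP-1 sequence, the TATA box and the GC box on either strand, and each line reads 5′ to 3′ on the strand of the gene.
Mmp3, chr9:7445722-7445821, plus strand: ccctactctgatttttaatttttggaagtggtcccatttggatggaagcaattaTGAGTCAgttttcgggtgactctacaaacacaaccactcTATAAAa
Mmp10, chr9:7502242-7502341, plus strand: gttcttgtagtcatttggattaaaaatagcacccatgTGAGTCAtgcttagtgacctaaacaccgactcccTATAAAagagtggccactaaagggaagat
Mmp13, chr9:7272414-7272513, plus strand: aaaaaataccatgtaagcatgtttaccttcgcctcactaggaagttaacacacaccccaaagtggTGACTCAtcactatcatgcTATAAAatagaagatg
Timp1, chrX:20870066-20870165, plus strand: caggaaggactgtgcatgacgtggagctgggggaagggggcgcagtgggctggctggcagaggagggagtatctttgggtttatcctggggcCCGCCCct
Adamtsl2, chr2:27079279-27079378, plus strand: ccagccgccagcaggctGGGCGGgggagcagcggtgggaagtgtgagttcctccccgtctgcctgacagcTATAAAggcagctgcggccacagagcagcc
Mmp14, chr14:54431498-54431597, plus strand: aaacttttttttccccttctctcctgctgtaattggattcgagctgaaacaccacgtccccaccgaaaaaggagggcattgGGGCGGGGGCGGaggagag
Timp4, chr6:115252206-115252305, minus strand: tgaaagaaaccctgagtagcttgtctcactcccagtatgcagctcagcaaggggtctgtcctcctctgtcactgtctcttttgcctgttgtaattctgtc
All 10 of the genes that rose and had a sequence held a GC box, and 0 of them held TGANTCA. The same was true of Mmp15 and Mmp11, which were tested but not called. A GC box stood in 22 of the 26 members outside the cluster, so it did not set the genes that rose apart. Timp4 held 0 of the 3 motifs in its whole window. A match describes letters only and does not show a bound site.

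Of the ADAMTS enzymes, Adamts2, which removes the amino-terminal propeptide of fibrillar procollagens, rose most among those tested. Adamts2 (ENSMUSG00000036545, chromosome 11: 50602084 to 50807573, plus strand) was at 1.05, 0.773 and 0.908 FPKM in WT against 4.20, 4.92 and 3.60 in those labelled PKI. The groups were far apart, and the rise was 4.67-fold (log2 1.45, SE 0.11, adjusted p = 0.000536, and 1.26 after scaling). The other procollagen N-proteinases were lower and did not show this pattern. Adamts3 was at 0.448, 0.422 and 0.667 FPKM in WT against 0.288, 0.512 and 0.542 in those labelled PKI, and Adamts14 was at 0.129 or less throughout.

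In the group of ADAMTS enzymes that cleave aggrecan and versican, 2 of 7 genes were tested and both rose. These 2, Adamts1 and Adamts5, are neighbours on chromosome 16 and lie 53.1 kb apart. Adamts1 was at 2.73, 4.25 and 2.95 FPKM in WT against 6.67, 6.75 and 5.90 in those labelled PKI, a 1.95-fold rise (85793827 to 85803113; log2 0.80, SE 0.13, adjusted p = 0.00543, and 0.56 after scaling). Adamts5 was at 2.18, 1.88 and 2.03 FPKM in WT against 2.38, 3.08 and 2.87 in those labelled PKI (85856173 to 85901828). Its groups were close but did not overlap, and its log2 change of 0.32 passed as deposited (adjusted p = 0.0317). The Adamts5 call was lost after scaling (log2 0.11, adjusted p = 0.462), without a filter on low values (0.0778), and without WT replicate 2 (0.0903), WT replicate 3 (0.0802), PKI replicate 2 (0.0795) or PKI replicate 3 (0.0890).

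Adamts7, a protease of cartilage oligomeric matrix protein, was the member of the ADAMTS family that fell. Adamts7 (ENSMUSG00000032363, chromosome 9: 90163069 to 90208071, plus strand) was at 1.51, 1.5 and 1.57 FPKM in WT against 0.951, 0.967 and 0.799 in those labelled PKI. The WT values were tightly grouped and all above those labelled PKI, and the mean was 1.68-fold lower (log2 −0.41, SE 0.07, adjusted p = 0.00644, and −0.57 after scaling). Adamts7 shares 122 exon bases with Tbc1d2b on the opposite strand, which was at 1.09 ± 0.0181 FPKM in WT against 1.76 ± 0.148 in those labelled PKI (SD, n = 3 each). Reads of the shared stretch cannot be assigned to either gene. Adamts10, which binds fibrillin and has little protease activity, was at 1.98, 1.09 and 1.22 FPKM in WT against 3.47, 2.59 and 2.55 in those labelled PKI. Its 2.01-fold rise (log2 0.68, SE 0.16, adjusted p = 0.0153) was not called after scaling (log2 0.48, adjusted p = 0.0753), without a filter on low values (0.0527) or without WT replicate 3 (0.0532).

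Of the 5 ADAMTSL genes 3 were tested and rose. Adamtsl2, which binds fibrillin and latent TGF-β binding proteins, was at 0.372, 0.194 and 0.233 FPKM in WT against 2.22, 3.11 and 1.99 in those labelled PKI (ENSMUSG00000036040, chromosome 2: 27079379 to 27108981, plus strand). It went from a low level in each WT library to at least 1.99 FPKM in each library labelled PKI, a 9.17-fold rise (log2 1.43, SE 0.13, adjusted p = 0.000819, and 1.30 after scaling). Adamtsl5 had the highest level of the ADAMTSL genes, with 6.13, 6.43 and 4.49 FPKM in WT against 9.78, 9.99 and 10.1 in those labelled PKI (chromosome 10: 80339110 to 80348412). The libraries labelled PKI were nearly equal, and the rise was 1.75-fold (log2 0.73, SE 0.12, adjusted p = 0.00482, and 0.46 after scaling). Adamtsl4, a fibrillin-binding protein of microfibrils, was at 4.55, 4.66 and 4.69 FPKM in WT against 6.06, 5.43 and 5.97 in those labelled PKI. Its 1.26-fold rise (log2 0.27, SE 0.07, adjusted p = 0.0188) was close to the median of all genes and was at log2 0.02 after scaling (adjusted p = 0.855). That call was also lost without WT replicate 3 (0.0531), PKI replicate 1 (0.0612) or PKI replicate 3 (0.0631).

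**Figure D3:**
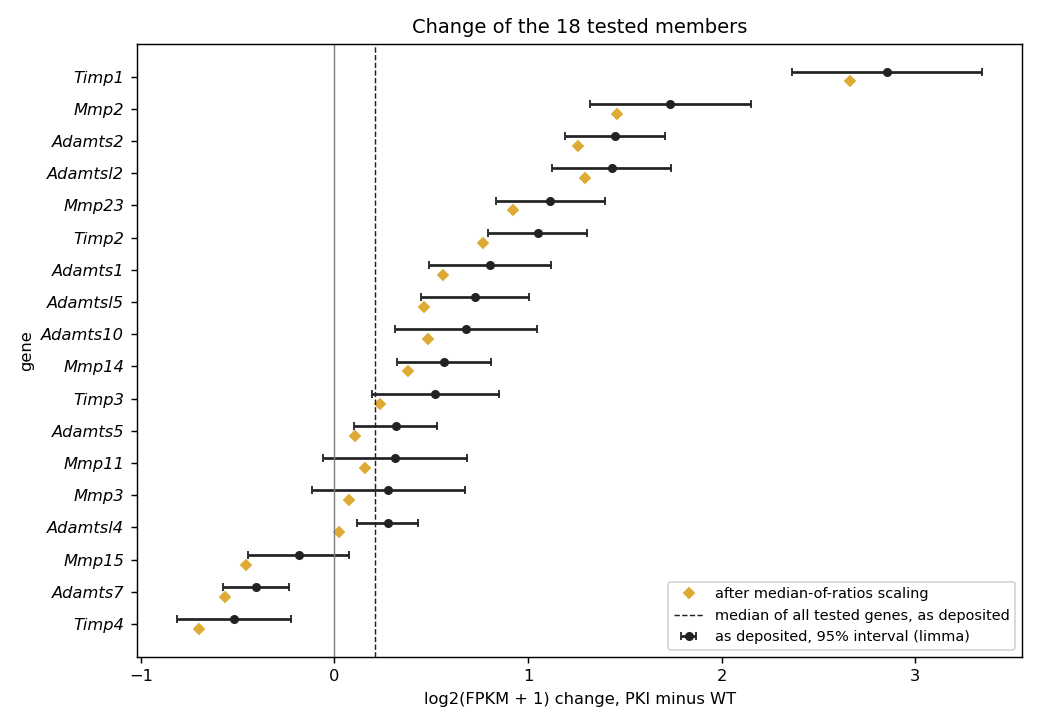
Log2(FPKM + 1) change, PKI minus WT, of the 18 tested genes with 95% intervals (black) and the change after median-of-ratios scaling (yellow), beside the median change of all tested genes (dashed line at 0.21). Timp1 (2.85), Mmp2 (1.74), Adamts2 (1.45) and Adamtsl2 (1.43) lie furthest to the right, and Timp4 (−0.52) and Adamts7 (−0.41) to the left.

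Another 33 genes stayed below a mean of 1 FPKM, of which 5 (Mmp1a, Mmp10, Mmp20, Mmp21 and Adamts13) were listed at 0 in every library. Adamts13 encodes the von Willebrand factor protease made in the liver. There were 8 genes with a mean from 0.2 to below 1 FPKM. In 4 of the 8 all libraries labelled PKI lay above WT, against 32.0% of all genes of that range, in 0 of the 8 below (3.85%), and in 4 the groups overlapped. The 4 without overlap were Mmp19, Mmp28, Adamts9 and Adamts15. Mmp19 was at 0.314, 0.108 and 0.271 FPKM in WT against 0.797, 0.676 and 0.681 in those labelled PKI. It shares 789 exon bases with Tmem198b on the opposite strand (0.568 ± 0.0276 FPKM in WT against 1.01 ± 0.0483 in those labelled PKI, SD, n = 3 each).

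Mmp28 was at 0.251, 0.412 and 0.520 FPKM in WT against 0.568, 0.595 and 0.646 in those labelled PKI, with small gaps between the groups. It shares 466 exon bases with 1700020L24Rik on the opposite strand (0.199 ± 0.0654 FPKM in WT against 0.290 ± 0.109 in those labelled PKI, SD, n = 3 each). Adamts9 was at 0.514 to 0.618 in WT against 0.678 to 0.851 in those labelled PKI, and Adamts15 at 0.292 to 0.459 and 0.485 to 0.686. Adamts9 shares 1381 exon bases with A730049H05Rik and 424 with Gm15737, both on the opposite strand and at 0.112 FPKM or less in every library. The groups overlapped for Mmp9, Adamts3, Adamts6 (0.265 to 0.344 and 0.343 to 0.368) and Adamtsl3 (0.358 to 0.600 and 0.381 to 0.592). The remaining 20 genes above 0 had means under 0.2 FPKM and at most 0.413 in any library. When all genes above 0 were tested, 4 of the 28 genes above 0 but below the minimum mean were called (limma), against 3.95% of all genes of that kind, in a fit that called 2977 of 24705 genes. Mmp19 (adjusted p = 0.0204), Adamts8 (0.0389) and Adamts20 (0.0467) were higher and Mmp13 (0.0382) was lower. Adamts8 went from 0.0689 to 0.294 FPKM in the mean, and Adamts20 was listed at 0 in 2 of the 3 WT libraries and at 0.134 to 0.358 FPKM in those labelled PKI.

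**Figure D4:**
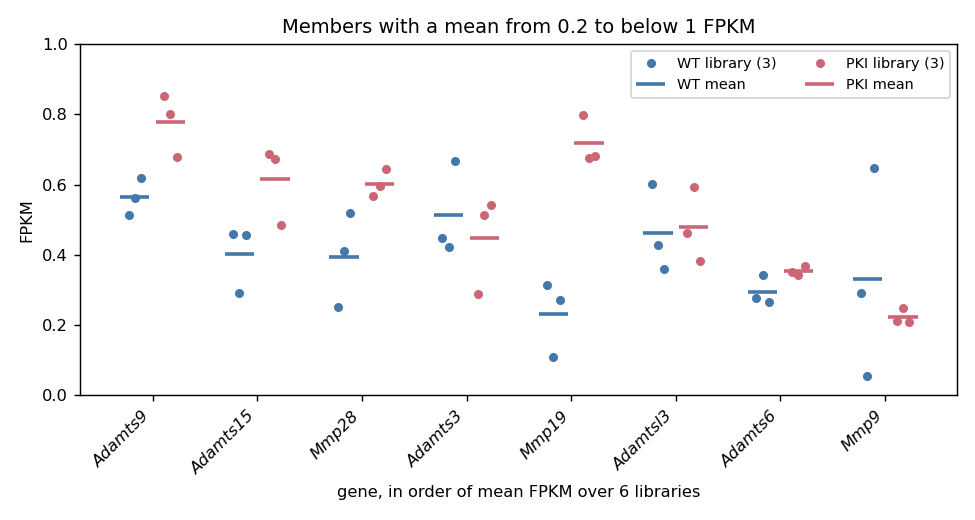
FPKM of the 8 genes with a mean from 0.2 to below 1 FPKM, with 1 point for each library and a bar at each group mean (3 WT and 3 PKI). Mmp19 shows the widest gap between the groups, and the 3 WT values of Mmp9 spread from 0.0565 to 0.648.

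The genes around these enzymes were described from lists of activators, inhibitors of other families, receptors and substrates. Over all tested genes 36.4% were higher and 2.96% lower, and 7.82% and 9.18% after scaling. Of 5 tested protease activators of 13 listed, 4 rose: the lysosomal cysteine protease gene Ctsb (38.4 ± 1.43 to 57.3 ± 1.77 FPKM), the plasminogen activator genes Plat (1.21 ± 0.172 to 2.38 ± 0.305) and Plau (0.831 ± 0.143 to 1.42 ± 0.153), and Pcsk6, with Furin at log2 0.07 (SD, n = 3 each; 2 higher after scaling). Of 8 tested inhibitors outside the TIMP family, 5 rose, among them the cystatin gene Cst3 (1.63-fold), the C1 inhibitor gene Serping1 (2.62-fold) and Serpinf1 (4.05-fold), and after scaling 5 were higher and 1 lower. Reck, a membrane-anchored MMP inhibitor, was at log2 0.31 and did not pass (adjusted p = 0.122). Of 8 tested genes for induction and clearance of MMPs, 6 rose (2 after scaling). Their median log2 change was 0.31 (0.12 when scaled), against 0.21 (−0.02) over all tested genes. The endocytic receptor gene Lrp1 rose 2.62-fold and Thbs1, which binds MMPs, 3.36-fold. Lrpap1, a chaperone of that receptor, was 1.20-fold higher and turned after scaling (log2 −0.04). Plau and Sdc1, both called higher, and Reck reached the minimum mean through the libraries labelled PKI alone. The counts that hold them are descriptions only.

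For the substrate genes, 36.4% of all tested genes were higher, and 7.82% after scaling. The substrate lists were chosen with earlier results of these data known. Their counts and medians are therefore descriptions and not a test of an excess over all genes. All 8 collagen genes rose, also after scaling, and their median log2 change was 1.58 (1.37 when scaled): the basement membrane gene Col4a1 1.95-fold, the fibrillar gene Col1a1 4.34-fold and the fibril-associated gene Col14a1 5.27-fold. Of 9 tested proteoglycan and glycoprotein genes 8 rose (8 after scaling), at a median of 1.23 (1.01 when scaled), including Bgn (4.43-fold), Sparc (2.60-fold) and Postn (13.0-fold). Vcan, the versican substrate of Adamts1 and Adamts5, was at 0.477 ± 0.130 FPKM in WT against 1.81 ± 0.278 in those labelled PKI (adjusted p = 0.00138), and Comp, the substrate of Adamts7, at 1.19 ± 0.0859 and 7.77 ± 2.78 (0.00102). Vcan and Comp were singled out after their values were seen. Vcan, Eln (called higher, 0.825 FPKM in WT) and Ltbp2 (0.166 in WT) reached the minimum mean through the libraries labelled PKI alone. Their calls and the counts that hold them therefore support nothing further. In the list for trimming the other end of procollagens, 3 of 3 tested genes rose (3 after scaling). They were the astacin protease gene Bmp1 (2.37-fold) and its enhancers Pcolce (3.29-fold) and Pcolce2 (2.44-fold). The astacin genes Tll1 (0.0187 FPKM in WT against 0.0420 in those labelled PKI) and Tll2 (0.0697 against 0.00916) were too low to test. Of 5 tested fibrillin and latent TGF-β binding genes 4 rose (4 after scaling), among them Ltbp4 (1.74-fold), Ltbp3 (2.40-fold) and Ltbp2 (24.7-fold). Of 5 tested ADAM sheddases 4 rose (2 after scaling), with Adam15 at 1.58-fold, Adam9 at 1.65-fold and Adam17 at 1.47-fold.

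Markers of fibroblasts and macrophages mostly rose, while the other marker lists were mixed, fell or were mostly too low to test. In whole-tissue RNA a change in the number of cells and in the RNA per cell cannot be told apart. Over all tested genes 36.4% were higher and 2.96% lower (7.82% and 9.18% after scaling), at a median log2 change of 0.21. Of 11 tested fibroblast markers 8 rose and 0 fell (8 after scaling; median log2 change 1.01), and the list summed to 272 to 406 FPKM in WT against 513 to 559 in those labelled PKI. Its leading genes were Mfap5 (6.23-fold), Pcolce and Col1a1, and Dcn, Col1a1, Col14a1 and Pcolce also stand in the lists above. Of 10 tested macrophage markers 9 rose (8 after scaling; median 1.13), with Lgals3 (8.61-fold), C1qa (2.51-fold) and C1qc (2.34-fold) leading, and sums of 72.1 to 112 and 220 to 240 FPKM. Smooth muscle and pericyte markers rose in 4 of 9 (1 higher and 2 lower after scaling; median 0.32), led by Acta2 (2.20-fold), Rgs5 (1.25-fold) and Notch3 (1.34-fold), with sums of 152 to 180 and 211 to 254. The part of these cells in the values of the metalloproteinase genes was not tested.

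Endothelial markers rose in 4 of 10, near the 36.4% of all tested genes, and their median of 0.23 was near the 0.21 of all genes. After scaling 0 were higher and 1 lower. Ly6c1 was at 1.27-fold, Plvap at 1.61-fold and Pecam1 at 1.19-fold, and Pecam1 turned after scaling (log2 −0.04). The sums were 95.9 to 97.9 FPKM in WT against 111 to 119 in those labelled PKI. Neutrophil markers summed to 0.829 to 4.58 FPKM in WT against 2.04 to 2.78 in those labelled PKI, with 1 of 8 tested (S100a9, adjusted p = 0.982) and Ly6g at 0. Lymphocyte markers summed to 0.742 or less and epicardial and mesothelial markers to 1.22 or less in each library. Of 10 cardiomyocyte markers 3 fell and 1 rose (7 lower and 0 higher after scaling; median −0.09), with Tnni3 1.21-fold and Pln 1.18-fold lower and Actc1 1.25-fold higher, and sums of 16356 to 17240 and 13381 to 17431 FPKM. The levels are those of heart muscle, as labelled. Atrial markers rose in 1 of 6 (Nppa, 4.18-fold), and 0 fell (1 higher and 0 lower after scaling), while the median log2 change of the list was −1.03 (−1.22 when scaled). Sln (log2 −1.72, adjusted p = 0.0723) and Myl4 (log2 −1.49, adjusted p = 0.117) did not pass, and the sums, of which Nppa was the main part, were 273 to 480 and 670 to 1500. Red cell markers fell in 5 of 5 (5 after scaling; median −0.48), led by Hbb-bt, Hbb-bs and Alas2 (1.62-, 1.72- and 1.48-fold lower), with sums of 380 to 538 and 274 to 338.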

How the data were processed

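The deposited values are FPKM per gene and library, the unit that the authors' table names. The submitters' processing notes list CASAVA, Bowtie 0.12.2 and mm9. The sources used here do not give the program or annotation behind the FPKM values. Per the labels' protocols, libraries were made with the Illumina TruSeq RNA kit from total RNA. Both deposited gene tables held identical values. Groups were read from the titles of the samples. Log2(FPKM + 1) values of genes reaching a mean of 1 FPKM entered limma 3.58.1 (R 4.3.3; variance trend, two-sided, Benjamini-Hochberg), and adjusted p-values are limma's. The fit was also run on simulated data with independent noise and few changed genes, unlike these data, so its result is not used here. Counts could not be recovered: among genes under 0.05 FPKM, 17.2% to 20.4% of ratios to WT replicate 1 lay within 0.01 (log2) of a ratio of small whole numbers, and the commonest ratio put the other libraries at 0.829 to 0.927 of its depth. Positions come from GENCODE M21 (GRCm38), matched on identifiers, 99.7% of which it holds, and promoters from RefSeq. Genes named were Ppargc1a, all members with a mean of 0.2 FPKM or more, and the 3 genes of each list with the smallest p; other names were chosen after their values were seen. Members and lists were chosen with earlier results of these data known. Alternatives were another pseudocount, other filters and scalings, no variance trend, the replicate number as a block, and each library left out in turn.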

Additional observations from a re-analysis of the deposited data

How the results depend on the processing

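The log2 changes of the 18 tested genes kept their direction under every alternative run, and 10 of the 15 calls held in all of them for which the gene was tested; the calls of Timp3, Timp4, Adamts5, Adamts10 and Adamtsl4 did not. The count of called genes among all tested was 3902, and it was 1925 at a minimum mean of 5 FPKM, 1684 after median-of-ratios scaling (775 higher and 909 lower) and 1522 after quantile normalisation (763 and 759). Among the members, 15 were called in the main analysis, 12 with either scaling (9 higher and 3 lower) and 6 at the minimum mean of 5 FPKM, where fewer genes were tested. Without a filter 15 were also called, but of other genes in part: Timp3, Timp4, Adamts5 and Adamts10 were lost. Leaving out 1 library gave 2344 (without WT replicate 3) to 3425 called genes, with 2498 without PKI replicate 3, and 10 (without WT replicate 3) to 15 called members, and put the log2 change of Ppargc1a at −0.20 to −0.11. Ppargc1a was called lower after scaling (−0.44, adjusted p = 0.00521) and quantile normalisation (−0.42, adjusted p = 0.00806). With the replicate number as a block 2849 genes and 12 members were called, without Timp3 (limma adjusted p = 0.0597), Adamts5 (0.0725) and Adamtsl4 (0.0523), and with Ppargc1a at −0.16. Same-numbered libraries correlated at −0.10, 0.00115 and 0.0529 in their deviations from the group means. No pairing by number was seen, but so few libraries in each group cannot exclude one. The absolute depth is unknown, so no counting error can be given for the genes below 0.2 FPKM.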
